A study of Mus musculus with 4 samples.

Results

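Keratins are the intermediate filament proteins of epithelial cells, and the 52 keratin genes described here were measured in epidermal Langerhans cells, the resident antigen-presenting dendritic cells of skin, after sorting from a suspension. They are every symbol made of Krt and a number in the expression tables, 51 in all, with Krt6a, which that pattern misses because of its letter but which belongs to the stress keratins compared below. All were taken from 24441 symbols. RNA sequencing was done on 4 libraries from mice of 4 weeks, 2 from wild-type mice (WT 1 and WT 2) and 2 from mice with the CD11c-Cre transgene and floxed Tfam alleles (Tfam cKO 1 and Tfam cKO 2). The CD11c promoter drives Cre in dendritic and related myeloid cells, so the mitochondrial transcription factor gene Tfam is targeted in those cells and not by design in keratinocytes. The labels do not name the mice behind each library or the surface markers used in the sort. A p-value here reflects only how these libraries varied, and how many mice that spread covers is unknown.

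A keratin filament is built from pairs of a type I and a type II chain. Dividing keratinocytes of the basal layer make the type II chain Krt5 with the type I chains Krt14 and Krt15. Cells that leave this layer switch to Krt1 and Krt10, and wounded or inflamed epidermis and the hair follicle make Krt6a, Krt16 and Krt17. Langerhans cells sit between these keratinocytes and come from a blood cell lineage. In bulk RNA, more cells of a type and more RNA per cell cannot be told apart.

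The libraries carried the markers of their labelled cell type. Cd207, the gene for langerin, was listed at 2098 and 1495 FPKM for WT and at 1528 and 1374 FPKM for Tfam cKO, and the MHC class II chaperone gene Cd74 at 9264 to 12340 FPKM. The MHC class II gene H2-Ab1 was listed at 6487, 6705, 7053 and 5387 FPKM in the order WT 1, WT 2, Tfam cKO 1 and Tfam cKO 2. FPKM counts fragments per length of transcript and per mapped total, so levels of different genes can be set side by side. Tfam itself was listed at 3.17 and 1.61 FPKM for WT and at 1.65 and 1.53 FPKM for Tfam cKO, so WT 2 lay between the Tfam cKO values, and every direction below rests on the labels. The tables hold no read counts. Depths relative to WT 1 were estimated from the widths of the authors' 95% intervals, as a median over keratins with a mean of at least 1 FPKM. They were 1.37 for WT 2, 0.883 for Tfam cKO 1 and 1.55 for Tfam cKO 2. Krt14 was left out, because its interval did not follow its level. The libraries numbered 1 had 0 FPKM of 4 Y-linked genes, and those numbered 2 had 58.8 FPKM for WT and 21.7 FPKM for Tfam cKO. The libraries of each genotype were thus not repeats of a single sample. Those numbered 2 also had the higher estimated depths, so library number, Y-linked level and depth cannot be told apart below.

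Keratin transcripts made up 3.23% and 2.38% of the summed FPKM for WT and 2.92% and 2.79% in Tfam cKO. The basal chains Krt5, Krt14 and Krt15 held 91.0% of all keratin FPKM for WT 1, 83.7% for WT 2, 91.6% for Tfam cKO 1 and 84.3% for Tfam cKO 2. By mean level over the libraries Krt5 ranked 6, Krt14 ranked 9 and Krt15 ranked 13 among all symbols. Krt5 stood at 2.19 and 2.01 times the level of Cd207 in WT and at 2.93 and 2.78 times in Tfam cKO. Against Cd74 the genotypes overlapped, with Krt5 at 0.495 and 0.290 times its level in WT and at 0.363 and 0.412 times in Tfam cKO.

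The upstream sequences of 5 keratins are shown because Krt5 is the most abundant member, while Krt10, Krt77, Krt78 and Krt79 are the tested members that stood higher in both libraries numbered 2 than in both numbered 1, an order found for 13.7% of all genes tested. Each is the 250 bases before the RefSeq start in build GRCm38.p6, written 5′ to 3′ on the strand of the gene, which is the minus strand for all of them, with matches to TATAAA or ATAAAA on either strand in capitals. Krt5 lies at chr15:101712906-101713155, Krt10 at chr11:99389365-99389614, Krt77 at chr15:101869706-101869955, Krt78 at chr15:101954288-101954537 and Krt79 at chr15:101940325-101940574.
Krt5: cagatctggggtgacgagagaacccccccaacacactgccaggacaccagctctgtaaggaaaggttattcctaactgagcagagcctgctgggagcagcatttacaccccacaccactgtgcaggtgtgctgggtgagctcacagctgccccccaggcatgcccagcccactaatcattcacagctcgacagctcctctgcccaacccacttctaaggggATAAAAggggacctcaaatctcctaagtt
Krt10: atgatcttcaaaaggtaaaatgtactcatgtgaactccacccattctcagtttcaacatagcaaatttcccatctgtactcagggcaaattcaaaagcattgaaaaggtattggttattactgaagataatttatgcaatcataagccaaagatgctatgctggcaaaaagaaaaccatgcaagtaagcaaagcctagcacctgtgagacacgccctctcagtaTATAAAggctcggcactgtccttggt
Krt77: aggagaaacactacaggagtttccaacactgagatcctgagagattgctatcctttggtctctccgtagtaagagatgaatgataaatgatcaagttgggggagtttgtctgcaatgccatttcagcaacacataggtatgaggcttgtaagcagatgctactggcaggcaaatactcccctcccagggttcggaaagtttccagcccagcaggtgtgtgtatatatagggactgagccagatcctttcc
Krt78: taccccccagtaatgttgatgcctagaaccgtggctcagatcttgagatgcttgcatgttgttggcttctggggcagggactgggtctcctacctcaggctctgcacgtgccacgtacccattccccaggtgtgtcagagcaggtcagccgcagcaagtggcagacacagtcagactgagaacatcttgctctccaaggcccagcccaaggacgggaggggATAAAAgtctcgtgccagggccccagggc
Krt79: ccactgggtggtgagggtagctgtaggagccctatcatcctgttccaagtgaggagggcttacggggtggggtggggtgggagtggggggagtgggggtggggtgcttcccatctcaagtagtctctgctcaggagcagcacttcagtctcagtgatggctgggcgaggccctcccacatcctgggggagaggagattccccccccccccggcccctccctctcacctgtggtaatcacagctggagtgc

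The capitals begin 29 bases before the start in Krt5 and Krt78 and 26 bases before it in Krt10. Lower case means only that these exact words are absent, and the Krt77 window holds the run tatatata near its end. On the strand of the gene and 20 to 40 bases before the start, 20 of 36 keratin windows held one of these TATA-like words, against 2.87% of all 32851 windows. Counting both strands and all 250 bases, 25 of the 36 keratin windows and 22.8% of all windows held one. The AP-1 word TGANTCA, searched on both strands, was in 2 of 36 keratin windows and in 6.75% of all windows, and in none of the sequences shown. The windows belong to 35 of the 52 members. The RefSeq window of Krt14 starts 1518 bases from the GENCODE gene start and is not shown.

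In the tables' own coordinates 25 members lie on chromosome 11 between 99094412 and 100131185, the type I cluster, and 27 lie on chromosome 15 between 101180002 and 101862457, the type II cluster with the type I gene Krt18 at its end. The build of these coordinates is unresolved, since mm10 is named in the processing notes and yet 0 of the 51 members with a GENCODE gene of that name in GRCm38 overlapped it. Of the 52 members, 14 reached a mean of 1 FPKM and entered the test, 6 on chromosome 11 and 8 on chromosome 15. They are the highest of their family by this filter and do not stand for the other 38.

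**Figure D1:**
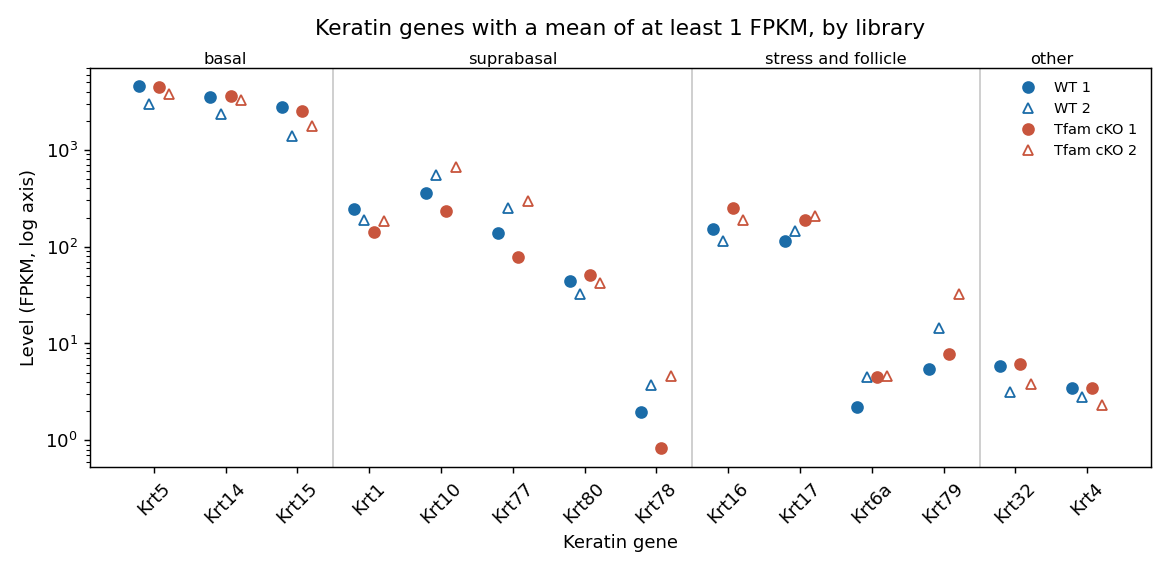
FPKM on a log axis of the 14 keratins with a mean of at least 1 FPKM, 1 point per library, circles for libraries numbered 1 and triangles for those numbered 2. The basal keratins lie above 1377 FPKM in each library, and Krt10, Krt77, Krt78 and Krt79 have both triangles above both circles.

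The basal keratins were lowest in WT 2. Krt5 was listed at 4598 FPKM for WT 1, 3003 for WT 2, 4480 for Tfam cKO 1 and 3815 for Tfam cKO 2. Krt14, its partner, was listed at 3538, 2362, 3587 and 3265 FPKM in the same order. Krt15, a type I chain of basal cells that also marks the stem cell region of the follicle, was listed at 2742, 1377, 2513 and 1774 FPKM. For all 3 genes both libraries numbered 1 stood above both numbered 2, as for 23.8% of all genes tested, and the genotypes overlapped.

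Mean levels of Krt5 were 3801 ± 1128 FPKM for WT and 4147 ± 471 FPKM for Tfam cKO (SD, n = 2 each). The log2 fold change, here and below of FPKM + 1 in Tfam cKO over WT, was 0.15 for Krt5 (SE 0.29, limma adjusted p = 0.971), 0.24 for Krt14 (SE 0.28, adjusted p = 0.95) and 0.12 for Krt15 (SE 0.36, adjusted p = 0.984), so no difference by genotype was detected beyond the spread between libraries. That of Krt15 was −0.0042 after rescaling the libraries to equal totals. Krt14 stayed at 0.769 to 0.856 times the level of Krt5 in the 4 libraries, while Krt15 stood at 0.775 and 0.583 times the level of Krt14 in WT and at 0.701 and 0.543 times in Tfam cKO. Type I keratins together were at 1.30 to 1.42 times the summed level of type II keratins.

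The suprabasal keratins did not move as a block across the libraries. Krt10, the type I chain of the spinous layer, was listed at 361 FPKM for WT 1, 547 for WT 2, 232 for Tfam cKO 1 and 671 for Tfam cKO 2. Krt77, a type II chain related to Krt1, was listed at 140, 252, 77.3 and 297 FPKM in the same order, and Krt78, another type II chain, at 1.94, 3.70, 0.824 and 4.63 FPKM. In each of these genes Tfam cKO 1 was lowest and Tfam cKO 2 highest, with the WT libraries between them.

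Krt1, the type II partner of Krt10, was listed at 243, 186, 143 and 184 FPKM, and so was highest in WT 1. Both its Tfam cKO libraries stood below both WT libraries, the upper Tfam cKO value by little, and the authors' intervals of WT 2 and Tfam cKO 2 were 182 to 191 and 180 to 188 FPKM. The Krt10 level was 1.49 and 2.94 times that of Krt1 in WT and 1.62 and 3.64 times in Tfam cKO. Krt10 over the sum of Krt1 and Krt77 ran from 0.942 to 1.39. Krt80, a type II chain of differentiating epithelia, was listed at 44.4, 32.8, 51.0 and 41.8 FPKM, with WT 2 lowest as in the basal keratins.

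By genotype none of the 5 suprabasal members with enough expression passed the test. Krt1 had the largest fold change toward lower levels in Tfam cKO, at 215 ± 39.9 and 164 ± 29.0 FPKM (SD, n = 2 each). Its log2 fold change came to −0.39 (SE 0.22, limma adjusted p = 0.872). The log2 fold change was −0.17 for Krt10 (SE 0.45), −0.30 for Krt77 (SE 0.55), −0.21 for Krt78 (SE 0.47) and 0.27 for Krt80 (SE 0.21). Within the libraries numbered 1 the log2 difference of Krt10 was −0.64 and within those numbered 2 it was 0.29. That of Krt77 was −0.85 and 0.24, and that of Krt78 was −0.69 and 0.26, so these 3 genes had opposite signs in the pairs of libraries. Without Tfam cKO 2 the log2 fold change of Krt77 was −1.27, and without Tfam cKO 1 it was 0.66. Each of these fits left a single Tfam cKO library.

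**Figure D2:**
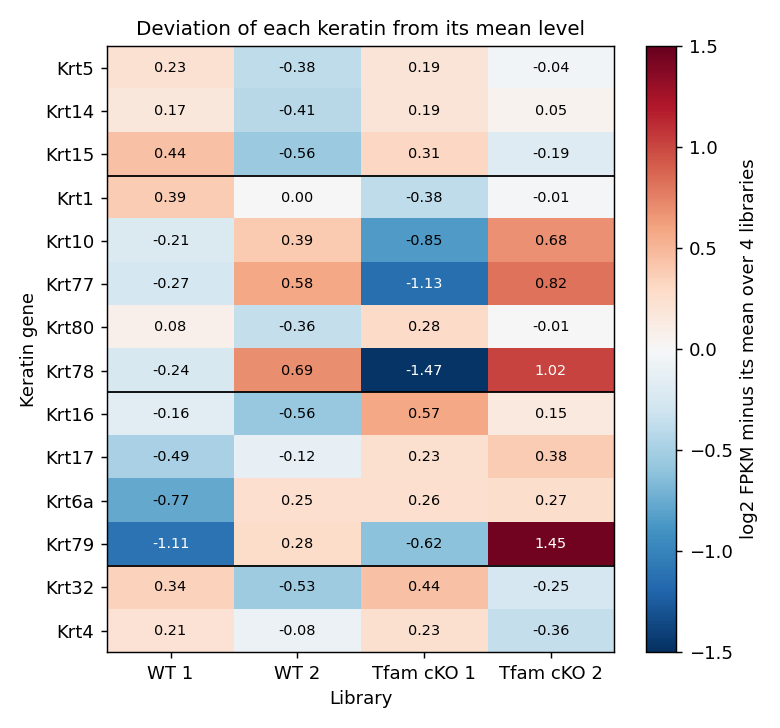
Log2 FPKM of each tested keratin minus its mean over the 4 libraries, with red for above and blue for below the mean. Krt78 runs from −1.47 in Tfam cKO 1 to 1.02 in Tfam cKO 2, and Krt16 is below its mean in both WT libraries and above it in both Tfam cKO libraries.

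The stress keratins Krt16 and Krt17 were apart by genotype, without passing the test. Krt16, a type I chain of wounded and hyperproliferative epidermis, was listed at 151 FPKM for WT 1, 115 for WT 2, 253 for Tfam cKO 1 and 188 for Tfam cKO 2. Krt17, a type I chain of the follicle and of stressed epidermis, was listed at 114, 147, 188 and 208 FPKM. Both Tfam cKO values exceeded both WT values for each gene, an order found for 25.4% of all genes tested.

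Krt16 averaged 133 ± 25.9 FPKM for WT and 221 ± 45.4 FPKM for Tfam cKO (SD, n = 2 each), 65.6% more, and its log2 fold change came to 0.72 (SE 0.23, unadjusted p = 0.0131, limma adjusted p = 0.646). Krt17 averaged 130 ± 23.0 and 198 ± 13.7 FPKM, 51.8% more, and its log2 fold change came to 0.61 (SE 0.20, unadjusted p = 0.0166, limma adjusted p = 0.662). Within the libraries numbered 1 and 2 the log2 differences were 0.73 and 0.71 for Krt16 and 0.72 and 0.50 for Krt17. With quantile normalization the log2 fold change was 0.57 for Krt16 and 0.50 for Krt17, and after rescaling to equal totals 0.60 and 0.49. Over the same 10910 genes that rescaling moved the median from 0.07 to −0.04.

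Krt6a, the type II partner of Krt16 and Krt17, was far lower than either, at 2.23 FPKM for WT 1, 4.51 for WT 2, 4.54 for Tfam cKO 1 and 4.56 for Tfam cKO 2. WT 1 stood apart and the other libraries were alike, with authors' intervals of 3.78 to 5.23 FPKM in WT 2 and 3.64 to 5.43 FPKM in Tfam cKO 1. Its log2 fold change was 0.40 (SE 0.25, limma adjusted p = 0.889) and 0.01 without WT 1. Krt16 was at 25.5 to 68.0 times the level of Krt6a. Krt79, a type II chain of the upper follicle and sebaceous duct, was listed at 5.48, 14.4, 7.73 and 32.4 FPKM. Both its libraries numbered 2 were above both numbered 1, and its log2 fold change, 0.77 with all libraries (SE 0.59, limma adjusted p = 0.91), was 0.15 without WT 1, 1.40 without WT 2 and −0.19 without Tfam cKO 2. Without Tfam cKO 1 it was 1.74. Each of these fits left a single library in a genotype.

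Reads can be shared between related keratins, which bears on Krt6a and Krt16. Of all runs of 50 bases in the longest GENCODE transcript, 45.5% in Krt6a and 37.6% in Krt16 also occurred in transcripts of another gene, Krt6b sharing the most with Krt6a and Gm11597 with Krt16. Krt14 and Krt17 also shared runs with Krt16 and with each other, and Krt5 with Krt6a, so reads could pass between members of different groups here. The share was 14.4% for Krt14, 8.52% for Krt5, 4.0% for Krt17, 0.666% for Krt15 and 0 for Krt1, Krt10, Krt77, Krt78, Krt79, Krt80, Krt32 and Krt4. How the authors' counting divided such reads is not given in the sources used here, so the values of Krt6a and Krt16 are uncertain. The authors' interval of Krt14 reached 4.13% to 4.16% to each side in the 4 libraries, against 0.511% to 0.623% for the more abundant Krt5.

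Set against the basal keratins, the suprabasal level differed more by library number than by genotype. Library number goes with the Y-linked level and with estimated depth here, and the part of each was not tested. Krt1 and Krt10 together stood at 5.55% of the basal sum for WT 1, 10.9% for WT 2, 3.54% for Tfam cKO 1 and 9.66% for Tfam cKO 2. On the log2 scale WT 2 was 0.97 above WT 1 and Tfam cKO 2 was 1.45 above Tfam cKO 1, while the mean of Tfam cKO was 0.41 below that of WT. The genotypes overlapped. Without Tfam cKO 1 the difference by genotype was 0.31, and without Tfam cKO 2 it was −1.13, so its sign rests on single libraries.

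Krt6a, Krt16 and Krt17 together stood at 2.46% and 3.95% of the basal sum in WT and at 4.21% and 4.52% in Tfam cKO. Their summed level was 268 and 266 FPKM for WT and 445 and 401 FPKM for Tfam cKO, so here the genotypes were apart. The near-equal WT sums hold opposite moves from WT 1 to WT 2, with Krt16 at 151 and 115 FPKM and Krt17 at 114 and 147 FPKM. The log2 difference in the ratio to basal keratins was 0.49 and was 0.15 without WT 1. No test was made of these sums, because their members were chosen with earlier results known.

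**Figure D3:**
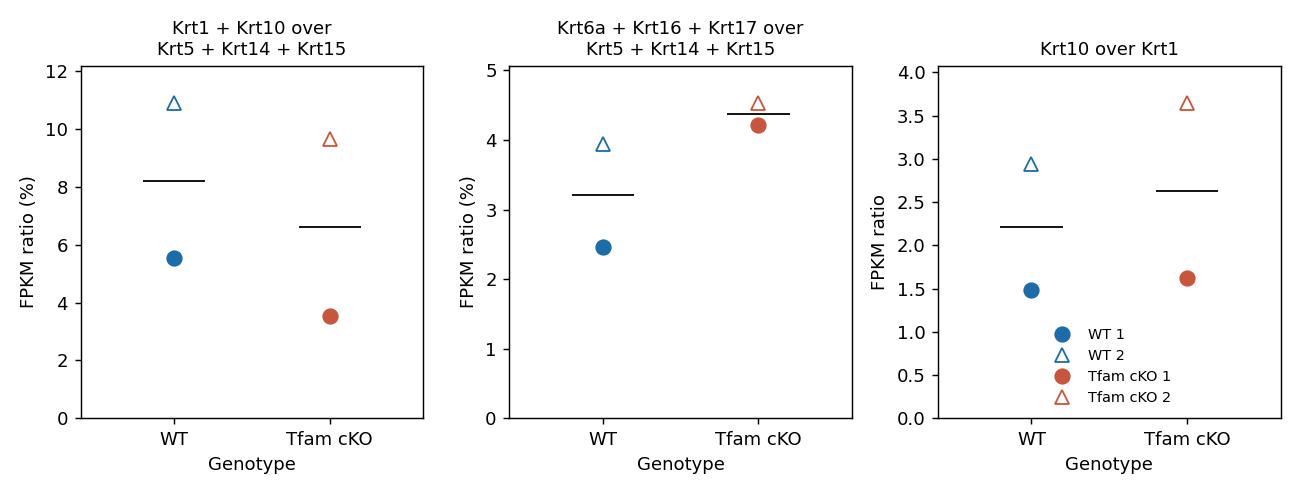
Summed FPKM of suprabasal and of stress keratins as a percentage of the basal sum, and the Krt10 level over that of Krt1, per library with the mean of each genotype as a line. The left and right panels separate triangles from circles, from 3.54% to 10.9% at the left, and in the middle panel both Tfam cKO libraries lie above 4.2%.

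Over all 14 tested keratins, 0 passed limma at an adjusted p below 0.05, where 0.0183% of all 10910 genes did. At an unadjusted p below 0.05 there were 2 keratins, Krt16 and Krt17, where 6.21% of all genes passed. Both Tfam cKO values exceeded both WT values for 3 of the 14, Krt16, Krt17 and Krt6a, a share near the 25.4% of all genes, and below for 1, Krt1, against 9.75%. The median log2 fold change was 0.15, against 0.07 for all genes. By library number, 4 of the 14 were higher in both libraries numbered 2 than in both numbered 1, against 13.7% of all genes, and 6 were lower, against 23.8%. The 4 are Krt10, Krt77, Krt78 and Krt79, and the 6 are Krt5, Krt14, Krt15, Krt80, Krt32 and Krt4.

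**Figure D4:**
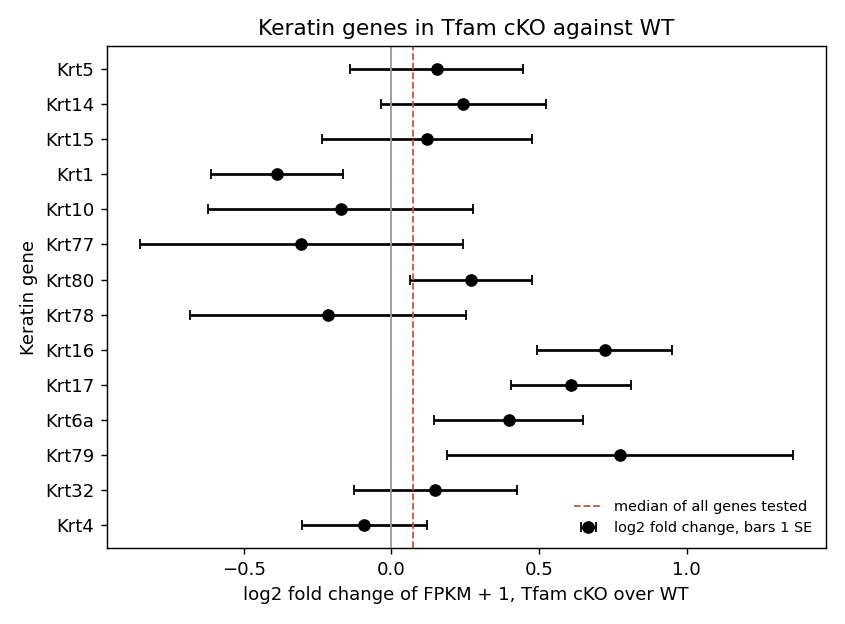
Log2 fold change of FPKM + 1 in Tfam cKO over WT for the 14 tested keratins, with bars of 1 SE from limma and the median of all genes as a dashed line. Krt16 at 0.72 and Krt17 at 0.61 lie farthest from 0 relative to their bars, and none passed the adjusted threshold.

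The remaining tested members belong to other epithelia. Krt32, a type I chain of the hair cuticle, was listed at 5.78 and 3.16 FPKM for WT and at 6.19 and 3.82 FPKM for Tfam cKO. It was the only one of 14 hair shaft members with a mean of at least 1 FPKM, and 9 of the 14 were listed at 0 in all libraries. Krt4, a type II chain of mucosal epithelia, was listed at 3.43, 2.79, 3.48 and 2.30 FPKM. Their log2 fold changes were 0.15 and −0.09 (limma adjusted p = 0.969 and 0.977).

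Of the 38 members under the filter, 12 were listed at 0 in all 4 libraries, and the highest single value was 2.24 FPKM, for Krt23 in Tfam cKO 2. Krt23, a type I chain of simple epithelia, had a mean of 0.866 FPKM, the highest under the filter, and the next member above the filter was Krt78 at 2.78 FPKM. Krt23 was listed at 0.114, 0.914, 0.194 and 2.24 FPKM, and Krt24, a differentiation-related type I chain, at 0.255, 1.53, 0.231 and 0.953 FPKM, both higher in the libraries numbered 2. Krt2, a type II chain of the upper epidermis of ear, tail and sole skin, was at most 0.417 FPKM. The 8 inner root sheath members reached at most 0.712 FPKM, for Krt25.

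Krt8, Krt18 and Krt20, simple epithelial keratins that also mark Merkel cells, the touch receptor cells of the epidermis, stayed at or under 0.698 FPKM. Krt18 was listed at 0.384 and 0.698 FPKM for WT and at 0.145 and 0.165 FPKM for Tfam cKO, with interval widths that correspond to 6.0, 14.7, 2.0 and 4.0 fragments. Its partner Krt8 reached at most 0.374 FPKM, and Krt20, the most specific Merkel cell keratin, was listed at 0 in 3 libraries and at 0.098 FPKM in Tfam cKO 1. Of 6 other Merkel cell markers 3 were listed at 0 in all libraries, among them Atoh1, and the list summed to 0.0331 and 0.0727 FPKM for WT and to 0.146 and 0.0295 FPKM for Tfam cKO. Its highest members were the transcription factor genes Isl1, at 0, 0, 0.146 and 0.0206 FPKM, and Sox2, at 0.0331, 0.0727, 0 and 0 FPKM.

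Other keratinocyte genes were present beside the keratins. The 10 genes of hemidesmosomes, which anchor Krt5 and Krt14 filaments to the basement membrane, and of basal cell identity summed to 727 and 619 FPKM for WT and to 801 and 761 FPKM for Tfam cKO. None passed limma at an adjusted p below 0.05, and 2 had an unadjusted p below it, as 6.21% of all genes did. All 10 had a positive log2 fold change, as 65.2% of all genes did, with a median of 0.18 against 0.07 for all genes. Both Tfam cKO values exceeded both WT values for 6, against 25.4% of all genes. The hemidesmosomal collagen gene Col17a1 was listed at 257, 221, 267 and 266 FPKM, and the integrin gene Itga6 at 81.6, 68.5, 94.1 and 95.5 FPKM. The basal keratin sum stood at 14.96 and 10.9 times this list in WT and at 13.2 and 11.6 times in Tfam cKO. After division by it the log2 difference of the stress keratin sum between genotypes was 0.44 in place of 0.66. The part of keratinocyte content in the order of Krt16 and Krt17 was not tested.

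Desmosomes tie keratin filaments of neighbouring cells together. Of their 14 tested genes 0 passed limma and 2 had an unadjusted p below 0.05, against 6.21% of all genes. In both Tfam cKO libraries 7 were higher, against 25.4% of all genes, and 1, Pkp2, was lower, against 9.75%, and the median log2 fold change was 0.18. Perp, a desmosomal membrane protein gene, was listed at 512, 415, 503 and 590 FPKM, and Jup, the plakoglobin gene, at 112, 119, 169 and 152 FPKM.

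Suprabasal and cornified genes followed the library number in part. Of 13 tested, 0 passed limma by genotype and 1 had an unadjusted p below 0.05, against 6.21% of all genes. In both Tfam cKO libraries 3 were higher, against 25.4% of all genes, and 0 were lower, against 9.75%. By library number, 7 were higher in both libraries numbered 2 than in both numbered 1, where 13.7% of all genes were. In the other direction there was 1, against 23.8% of all genes. The keratinocyte differentiation gene Krtdap, chosen after its values were seen, was listed at 94.8 and 159 FPKM for WT and at 49.8 and 268 FPKM for Tfam cKO, the order of libraries of Krt10. Klk7, a protease gene of the shedding layer chosen likewise, was listed at 1.23, 9.39, 1.29 and 20.0 FPKM. The most abundant genes of the list did not share that order, with the galectin gene Lgals7 at 2075, 1337, 1820 and 1959 FPKM and the 14-3-3 sigma gene Sfn at 1593, 1353, 2231 and 1833 FPKM.

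Of 5 tested genes of keratinocyte stress 0 passed limma and 1 had an unadjusted p below 0.05, against 6.21% of all genes. In both Tfam cKO libraries 1, Tslp, was higher, against 25.4% of all genes, and 0 were lower. By library number, 4 were higher in both libraries numbered 2 than in both numbered 1, against 13.7% of all genes, and 0 were lower. The median log2 fold change was 0.765, against 0.07 for all genes. Sprr1a, a cornified envelope precursor gene, was listed at 38.2, 54.0, 52.2 and 121 FPKM, and Tslp, a cytokine gene of stressed epithelium, at 11.2, 7.12, 15.4 and 16.4 FPKM (limma adjusted p = 0.562). Of 7 tested follicle and sebaceous genes 0 passed limma and 2 had an unadjusted p below 0.05, against 6.21% of all genes. Their median log2 fold change was 0.26, against 0.07 for all genes. In both Tfam cKO libraries 3 were higher, against 25.4% of all genes, and 1, Scd1, was lower, against 9.75%. The 3, chosen after their values were seen, were the follicle stem cell factor gene Sox9, at 5.33, 4.35, 8.85 and 7.20 FPKM, the receptor gene Lgr6, at 5.42, 5.59, 5.69 and 8.04 FPKM, and Fst, the gene for the activin binding protein follistatin. Fst was listed at 7.39, 6.82, 13.6 and 11.1 FPKM (limma adjusted p = 0.431). Gata3, a follicle lineage factor, was listed at 26.8, 13.4, 23.8 and 23.6 FPKM, and Scd1, a sebaceous lipid enzyme, at 19.9, 15.6, 14.3 and 14.8 FPKM. The bulge marker Cd34 reached at most 0.42 FPKM.

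Markers of other cells of the epidermal suspension were also measured. The 5 tested T cell markers summed to 280 and 346 FPKM for WT and to 202 and 300 FPKM for Tfam cKO, lowest in Tfam cKO 1, where Krt10 was lowest too. Of these markers 0 passed limma and 1, Cd3g, had an unadjusted p below 0.05, against 6.21% of all genes. Their median log2 fold change was −0.40, against 0.07 for all genes. In both Tfam cKO libraries 1, Thy1, was higher, against 25.4% of all genes, and 1, Cd3g, was lower, against 9.75%. By library number, 3 were higher in both libraries numbered 2, against 13.7% of all genes. Cd7 was listed at 97.0, 143, 72.3 and 122 FPKM and Cd3g at 79.2, 85.1, 36.9 and 70.1 FPKM. The 6 melanocyte markers summed to 4.22 to 8.29 FPKM, led by Mitf, the lineage's transcription factor gene, at 2.23, 2.18, 2.89 and 2.80 FPKM, and the pigment enzyme gene Dct at 2.44, 1.36, 2.02 and 0.888 FPKM. The 6 fibroblast markers summed to 0.278 to 1.07 FPKM, with Lum listed at 0. The matrix gene Dcn was listed at 0.0939, 0.753, 0.266 and 0.749 FPKM, and the collagen gene Col1a2 at 0, 0.195, 0 and 0.103 FPKM. Among the 9 Langerhans cell markers 0 passed limma and 0 had an unadjusted p below 0.05, with a median log2 fold change of −0.05, and both Tfam cKO values lay under both WT values for 2, Ptprc and Itgax, against 9.75% of all genes. The part of these cells in the keratin values was not tested.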

How the data were processed

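RNA was extracted with Trizol from Langerhans cells sorted out of epidermal suspensions and made into NEBNext Ultra libraries, per the labels' protocols. The authors deposited FPKM with 95% intervals, which have the columns of Cufflinks per the file headers. Each library has its own table. Per the submitters' processing notes CASAVA, Cufflinks and mm10 were used, with no versions. For the aligner, the annotation and reads with several matches, the treatment is not given in the sources used here. Read depth is unknown. Intervals span 2 standard errors to each side, which gives an effective fragment number. They are given per library and hold no spread between libraries. For Krt14 the width did not follow the level, so this number does not hold there.

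FPKM were summed over the loci of a symbol. Each keratin had 1 locus. The 10910 symbols reaching a mean of 1 FPKM were compared between genotypes on log2(FPKM + 1) with limma 3.58.1 (R 4.3.3), a model of genotype alone, a mean trend and Benjamini-Hochberg adjustment over all of them at 0.05. A fold change on this scale understates that of low genes. The procedure was also run on simulated data with known changes and with noise drawn independently for each library. That setting has no component shared by same-numbered libraries, and no result here rests on it. Sums and ratios of keratins were computed in Python 3.11.15 and given without a test. Upstream sequences are from RefSeq.

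The members and lists were chosen with earlier results of these data known. The text names the 8 keratins of the contrasted groups, each other member with a mean of at least 1 FPKM, the highest of the rest, and the 2 highest genes of each list. Alternatives were quantile normalization, equal totals, other filters and pseudocounts, robust moderation, no mean trend, a term for replicate number, the highest locus, other sums, and leaving out each library. Figures were drawn with matplotlib 3.10.9.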

Additional observations from a re-analysis of the deposited data

How the results depend on the processing

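Quantile normalization, equal totals and pseudocounts of 0.1 and 5 can change a fold change, and under these 4 settings 55 of 56 fold changes of single keratins kept their sign and their side of the threshold. The exception was Krt15, at −0.0042 with equal totals. The other alternatives with all libraries leave a keratin's fold change equal by construction and can move only its p. With the replicate number as a block Krt16 and Krt79 passed (limma adjusted p = 0.048 and 0.0113, in a range over the alternatives with all libraries of 0.048 to 0.858 for Krt16 and 0.0113 to 0.974 for Krt79). That block gave 2 keratins past the threshold in place of 0, and 184 genes in place of 2. The log2 deviations of same-numbered libraries correlated with r = 0.26 over all 10910 genes and 0.84 over the 14 keratins, which are not independent. The labels do not say that a number marks shared mice or a shared day. In both genotypes, however, the number coincides with the level of 4 Y-linked genes. That level was 0 FPKM in the libraries numbered 1 and 58.8 and 21.7 FPKM in those numbered 2, so the block also holds that difference. The count of all genes past the threshold was 0 without a filter, 1 with the filter at 5 FPKM, 1 with a pseudocount of 5 and 5 with robust moderation.

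The stress keratin sum differed between genotypes by 0.66 on the log2 scale, by 0.54 with equal totals and, in an alternative chosen after seeing the data, by 0.44 when divided by the hemidesmosome list.

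Leaving out each library in turn left 1 in a group, assumed to vary like the other. Only Krt1, Krt16, Krt17, Krt80 and Krt6a kept their sign in each of these fits, with ranges of the log2 fold change of −0.58 to −0.20, 0.51 to 0.93, 0.43 to 0.79, 0.055 to 0.48 and 0.011 to 0.78, and the other 9 keratins reversed in at least 1. The keratins past the threshold numbered 0 to 1 (Krt79 without Tfam cKO 1, Krt77 without Tfam cKO 2) and all genes 16 to 82, and the keratin median ran from 0.0856 to 0.29. The log2 fold change ran from −0.15 to 0.46 for Krt5, −0.048 to 0.53 for Krt14, −0.38 to 0.62 for Krt15, −0.94 to 0.59 for Krt10, −1.27 to 0.66 for Krt77, −1.03 to 0.60 for Krt78, −0.19 to 1.74 for Krt79, −0.20 to 0.50 for Krt32 and −0.31 to 0.13 for Krt4. The ratio to basal keratins ran from −1.13 to 0.31 for suprabasal and from 0.15 to 0.83 for stress keratins. The sums ran from −0.17 to 0.52 for basal, −0.83 to 0.36 for suprabasal and 0.59 to 0.74 for stress keratins.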
